A study of Mus musculus with 36 samples.

Results

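The genes described here are 4 enzymes of proline metabolism, Aldh18a1 and Pycr1 on the synthesis side and Prodh and Aldh4a1 on the breakdown side, chosen by symbol from the 36856 symbols of the table. All 4 passed the filter on low counts and were among the 16065 genes tested. Expression was measured by strand-specific bulk RNA-seq in 36 libraries of mouse embryonic fibroblasts (MEFs), with 3 libraries in each of 12 groups. The cells were WT or PERK -/-, and each genotype received DMSO (the solvent), Tg (thapsigargin, which empties the calcium store of the endoplasmic reticulum), BtdCPU, halofuginone, BtdCPU with Tg, or halofuginone with Tg. PERK, encoded by Eif2ak3, is the kinase that phosphorylates eIF2 alpha under stress of the endoplasmic reticulum, BtdCPU activates the related kinase HRI, and halofuginone blocks prolyl-tRNA synthetase and thereby activates the related kinase GCN2. The labels give no dose, time or batch, nor the number of cell lines or clones per genotype. Nothing in them says that replicates were separate cultures, so p-values measure only the spread between these libraries.

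Proline is made from glutamate in the mitochondrion. Aldh18a1 encodes the synthase that turns glutamate into glutamate semialdehyde, which closes spontaneously to pyrroline-5-carboxylate, and Pycr1 encodes a mitochondrial reductase that turns this into proline. Prodh encodes proline dehydrogenase, which oxidises proline back to pyrroline-5-carboxylate and passes electrons to the respiratory chain, and Aldh4a1 encodes the dehydrogenase that returns pyrroline-5-carboxylate to glutamate. Fibroblasts use much proline for collagen, and ATF4, the transcription factor raised by eIF2 alpha phosphorylation, is known to act on genes of amino acid synthesis.

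The promoters of both synthesis genes are shown because each holds 1 of the motifs searched. Over the 12 group means their transcripts had an r of 0.83. They parted with halofuginone in WT cells, at a log2 difference of 1.39 for Aldh18a1 and 0.03 for Pycr1. The sequences are from RefSeq on build GRCm38.p6 and cover the 250 bases before the annotated start, written in the direction of transcription. All 4 genes matched a promoter there. The Aldh18a1 window is chr19:40588464-40588713 on the minus strand, and its capitals mark an E-box, CACGTG. The Pycr1 window is chr11:120643749-120643998 on the minus strand, and its capitals mark TGATGCAA, the core of an element bound by C/EBP and ATF4 dimers.
Aldh18a1: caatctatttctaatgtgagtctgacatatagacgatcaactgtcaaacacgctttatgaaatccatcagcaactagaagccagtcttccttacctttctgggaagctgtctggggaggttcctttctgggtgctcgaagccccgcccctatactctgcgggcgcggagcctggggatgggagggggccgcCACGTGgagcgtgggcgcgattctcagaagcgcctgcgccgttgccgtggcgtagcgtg
Pycr1: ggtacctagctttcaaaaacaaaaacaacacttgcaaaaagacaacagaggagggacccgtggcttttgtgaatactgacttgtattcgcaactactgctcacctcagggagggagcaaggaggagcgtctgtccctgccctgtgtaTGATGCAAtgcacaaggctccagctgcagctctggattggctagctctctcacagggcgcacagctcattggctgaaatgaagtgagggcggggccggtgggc
The E-box began 59 bases before the start of Aldh18a1, and the TGATGCAA element began 103 bases before the start of Pycr1. Both strands of 32851 promoter windows of 250 bases were searched: 6.02% held CACGTG, 0.791% held TGATGCAA and 3.45% held TGATGNAA, which includes TGATGCAA. The windows of Prodh (chr16:18089191-18089440, minus strand) and Aldh4a1 (chr4:139622644-139622893, plus strand) held none of these letters. Those of Oat, Eprs and Prodh2, pathway genes described below, were searched as well and held none. A match describes the letters of the window only.

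The libraries held 32454257 to 37178107 counts. Eif2ak3, the targeted gene, was higher in WT than in PERK -/- libraries without overlap within each of the 6 treatments. PERK -/- libraries still held reads of it, 9.95 ± 0.760 CPM against 31.1 ± 1.10 CPM in DMSO (SD, n = 3), and 27.4 ± 3.31 CPM with Tg. Across treatments the genotypes overlapped, with the highest PERK -/- library at 35.4 CPM and the lowest WT library at 16.4 CPM. Of 10 fibroblast markers, 9 stood at 1 CPM or more in every library, and Lum reached 0 in some. Of the epithelial markers, Epcam, Krt5 and Krt14 stayed below 1 CPM everywhere, as did Pecam1 and Tek of the endothelial list and Ptprc and Cd3e of the blood list. The others of the epithelial and endothelial lists reached at most 8.62 CPM (Krt18), 1.08 CPM (Cdh1) and 1.76 CPM (Cdh5). Adgre1 of the blood list was not found among the symbols. The summed level ran from 0.0571 to 9.61 CPM for the epithelial list, from 0.186 to 2.11 CPM for the endothelial list and from 1.32 to 19.2 CPM for the blood list, which was mostly Csf1r. In PERK -/- against WT cells in DMSO, 8 of the 10 fibroblast markers were lower and none higher, where 24.9% of all tested genes were lower and 24.6% higher. In bulk RNA, fewer cells of a type and less RNA per cell cannot be told apart.

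Aldh18a1 was by far the most abundant of the 4 transcripts. Per length of transcript its group means ran from 47.6 to 229 RPKM, against 5.14 to 13.8 RPKM for Pycr1, 1.30 to 4.42 RPKM for Aldh4a1 and 0.275 to 3.59 RPKM for Prodh. Between the lowest and the highest group mean, the CPM differed 4.80-fold for Aldh18a1, 2.69-fold for Pycr1, 3.41-fold for Aldh4a1 and 13.0-fold for Prodh. CPM here is edgeR's normalised count level on library sizes scaled by TMM. The counts behind Prodh were the lowest, 19 to 315 per library, and its values carry the widest errors. The treatments with 1 compound share the DMSO libraries of their genotype, and both combinations share its Tg libraries, so these comparisons are not independent of each other.

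**Figure D1:**
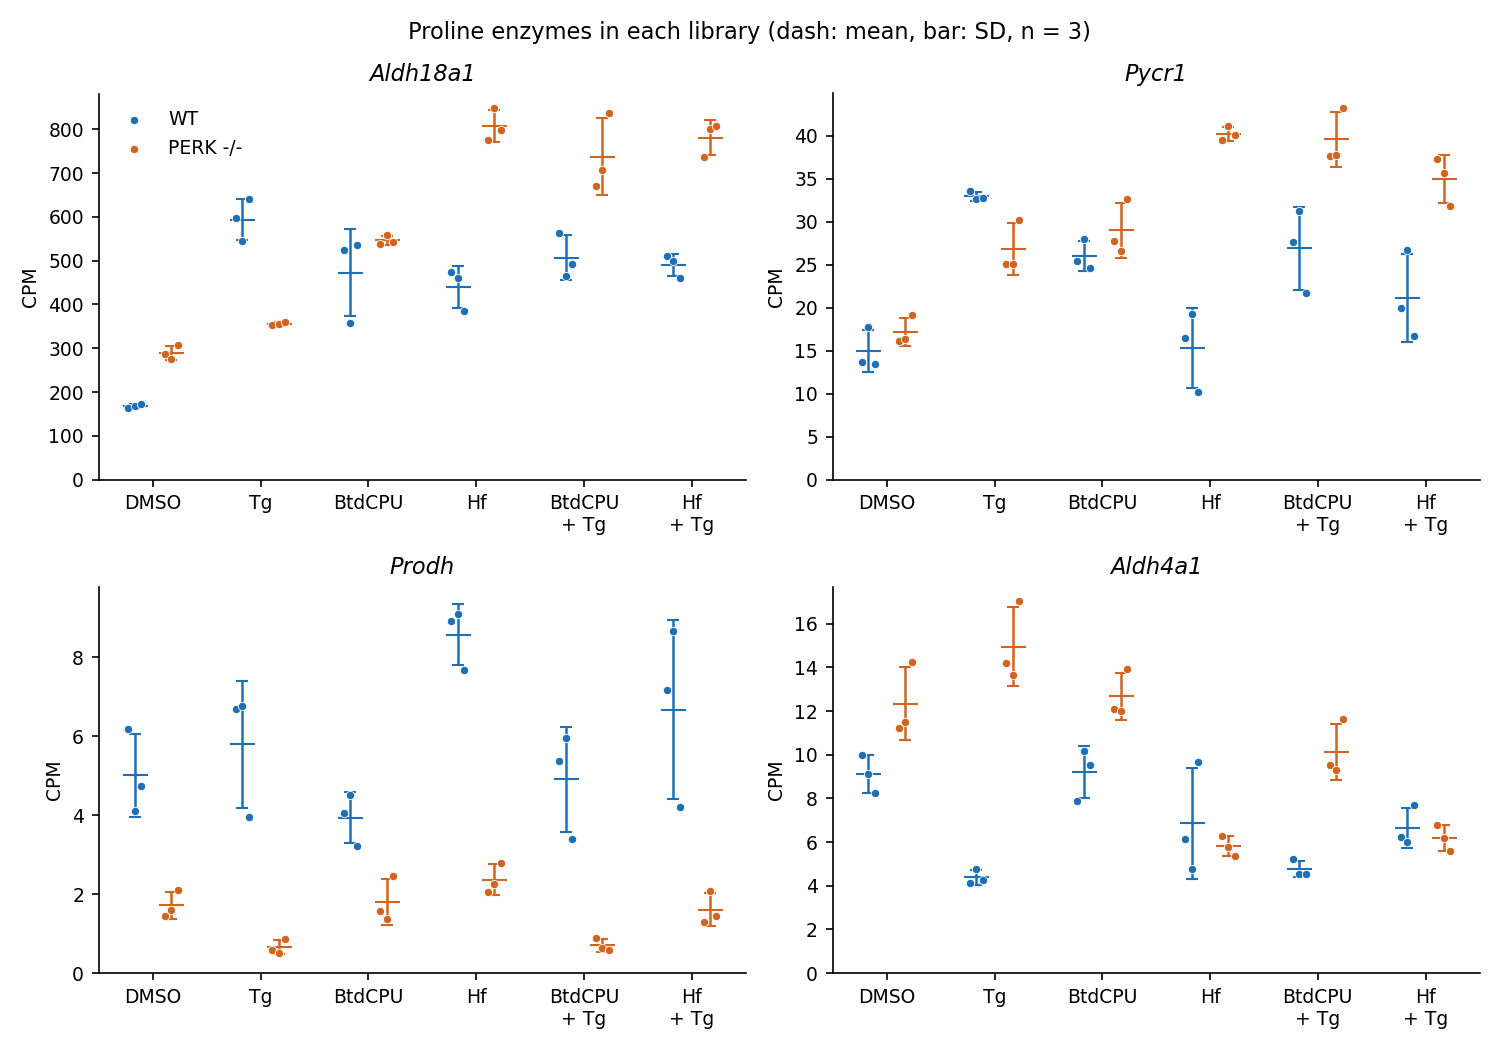
Level of each enzyme transcript in CPM (linear axis from 0) in all 36 libraries, by treatment (Hf is halofuginone), for WT (blue) and PERK -/- (orange) cells. Points are libraries, dashes are means and bars are SD of 3 libraries; every PERK -/- group of Prodh lies under every WT group in mean level, from 0.656 to 2.37 CPM against 3.93 to 8.56 CPM.

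In untreated cells the genotypes already differed in 3 of the 4 genes, where 49.5% of all tested genes were called (edgeR adjusted p below 0.05, in either direction). Aldh18a1 stood at 164, 168 and 173 CPM in the WT DMSO libraries and at 288, 275 and 306 CPM in the PERK -/- libraries. Every PERK -/- library was above every WT library, a log2 difference of 0.79 ± 0.11 (SE), edgeR adjusted p = 4.52e-07. Prodh went the other way, at 6.17, 4.10 and 4.73 CPM in WT and 1.45, 1.60 and 2.10 CPM in PERK -/- libraries. The groups did not overlap, and the log2 difference was -1.54 ± 0.28 (edgeR adjusted p = 2.53e-05). Aldh4a1 was higher in PERK -/- cells by 0.43 ± 0.17 on the log2 scale (edgeR adjusted p = 0.0343). That call was lost without PERK -/- DMSO replicate 3 (0.32, adjusted p = 0.174) and without WT DMSO replicate 2 (0.44, adjusted p = 0.0708) or 3 (0.37, adjusted p = 0.125), and also without the filter on low counts (0.40, adjusted p = 0.0999). For Pycr1 the libraries overlapped, with a log2 difference of 0.20 (95% interval -0.14 to 0.54, adjusted p = 0.345).

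Prodh and Aldh4a1 are both known as targets of p53. In the same comparison, 9 of 10 other p53 targets were lower in PERK -/- cells and 1, Sesn1, was higher, with a list median of -1.65 on the log2 scale against 0.02 for all genes, of which 24.9% were lower and 24.6% higher. Prodh was lower along with these genes and Aldh4a1 was not. The part of p53 activity in these differences was not tested.

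Thapsigargin raised both synthesis genes in WT cells, where 3 of the 4 enzymes were called against 47.6% of all genes. Aldh18a1 reached 597, 545 and 640 CPM with Tg. All 3 libraries were above every DMSO library, 3.53-fold (log2 1.82 ± 0.11, edgeR adjusted p = 3.03e-14). Pycr1 rose from 13.7, 17.8 and 13.5 CPM to 33.6, 32.6 and 32.8 CPM, also without overlap (log2 1.14 ± 0.17, adjusted p = 1.46e-06). On the breakdown side, Aldh4a1 fell from 9.97, 9.13 and 8.26 CPM to 4.14, 4.75 and 4.25 CPM. These groups were apart as well, with a log2 difference of -1.06 ± 0.18 (adjusted p = 1.09e-05). Prodh was at 6.68, 6.75 and 3.94 CPM with Tg, overlapping the DMSO libraries (log2 0.21, 95% interval -0.32 to 0.74, adjusted p = 0.528).

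The same treatment gave another pattern in PERK -/- cells, where 3 of the 4 enzymes were called against 27.9% of all genes. Aldh18a1 was at 352, 355 and 360 CPM with Tg, above all DMSO libraries but by 0.29 ± 0.11 on the log2 scale (edgeR adjusted p = 0.0423). This small rise was not called without PERK -/- DMSO replicate 1 or 2, nor without any 1 of the Tg libraries (0.25 to 0.30, adjusted p 0.0815 to 0.162). DESeq2 (0.27, adjusted p = 0.051) and edgeR without the filter on low counts (0.27, adjusted p = 0.115) did not call it either. Pycr1 rose from 16.1, 16.3 and 19.1 CPM to 25.1, 25.1 and 30.3 CPM (log2 0.64 ± 0.17, adjusted p = 0.0037). Prodh, already low, fell to 0.596, 0.518 and 0.854 CPM, under every DMSO library (log2 -1.38 ± 0.32, adjusted p = 0.00123). The counts behind these last levels were 22, 19 and 32. Aldh4a1 stood at 14.2, 13.6 and 17.0 CPM, overlapping DMSO at 11.2, 11.5 and 14.3 CPM (log2 0.28, adjusted p = 0.236).

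The difference between genotypes in the Tg response was tested directly, as the PERK -/- response minus the WT response, and was called for 3 of the 4 genes against 38.1% of all genes. For Aldh18a1 it was -1.53 ± 0.16 (edgeR adjusted p = 3.59e-09), for Prodh -1.59 ± 0.41 (adjusted p = 0.00255) and for Aldh4a1 1.34 ± 0.24 (adjusted p = 5.43e-05). For Pycr1 it was -0.50 ± 0.24 and missed the threshold (adjusted p = 0.097). With the replicate number as a block it was -0.52 and passed (adjusted p = 0.0103), and it also passed without WT DMSO replicate 2 (-0.64, adjusted p = 0.0422) and on the compared groups only (-0.50, adjusted p = 0.0381). Of 6 readouts of the integrated stress response (Atf4, Ddit3, Asns, Chac1, Trib3 and Psat1), all 6 had a lower response in PERK -/- cells under this test, with a list median of -2.24 against 0.03 for all genes, of which 18.6% were lower. Within PERK -/- cells, Tg raised 4 of the 6, all but Asns and Psat1, where 15.2% of all genes rose.

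**Figure D2:**
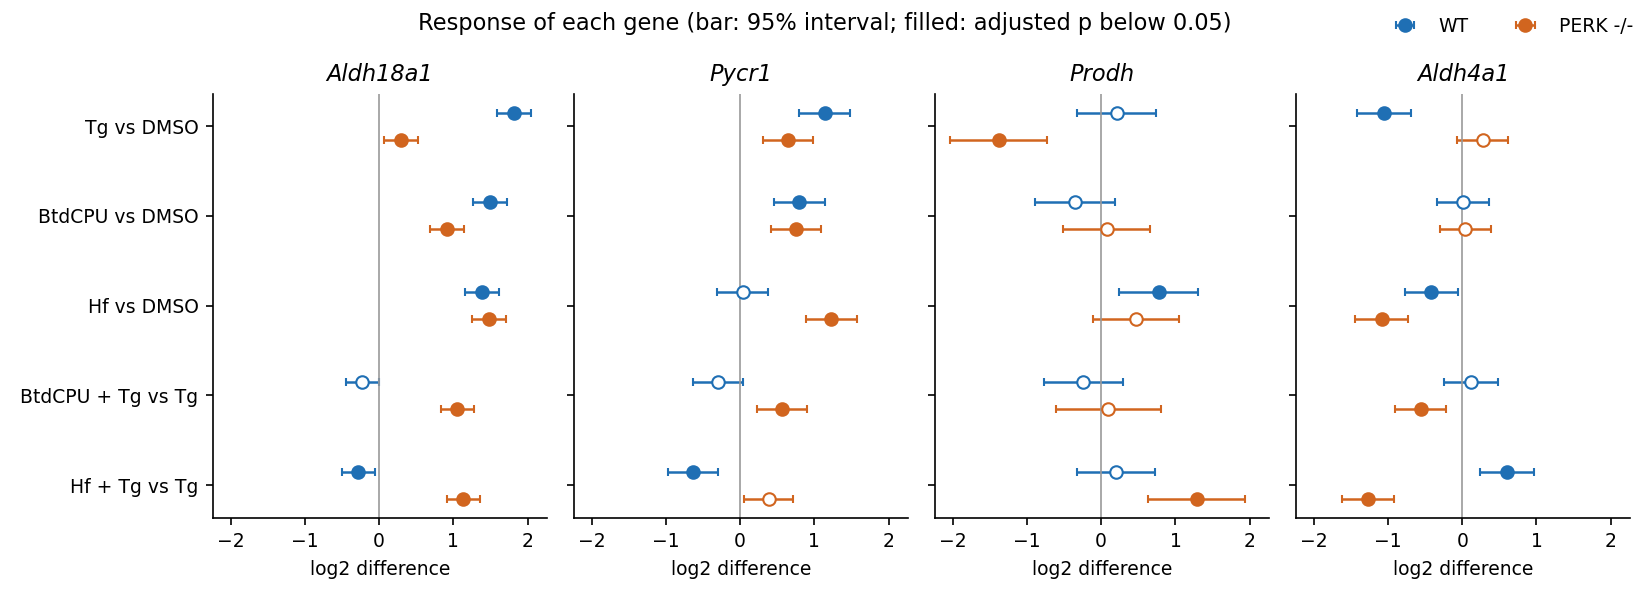
Log2 difference (x axis) of each enzyme transcript for 5 comparisons, in WT (blue) and PERK -/- (orange) cells. Points are edgeR estimates with 95% intervals and filled points passed an adjusted p of 0.05; Aldh4a1 moved to opposite sides for halofuginone with Tg against Tg, 0.60 in WT and -1.27 in PERK -/- cells.

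BtdCPU alone raised both synthesis genes in both genotypes and left neither breakdown gene called. In WT cells 2 of the 4 enzymes were called against 22.2% of all genes, and in PERK -/- cells 2 of 4 against 3.59%. These shares are 3571 and 577 genes, and 5534 and 1577 with the replicate number as a block. Aldh18a1 reached 524, 358 and 537 CPM in WT cells, all above DMSO although replicate 2 stood lower than the others (log2 1.49 ± 0.11, edgeR adjusted p = 1.26e-11). The PERK -/- libraries reached 539, 558 and 543 CPM, again above every DMSO library (log2 0.91 ± 0.11, adjusted p = 1.39e-06). Pycr1 was at 25.4, 27.9 and 24.6 CPM in WT cells (log2 0.79 ± 0.17, adjusted p = 0.000821). Its levels in PERK -/- libraries were 27.7, 26.6 and 32.7 CPM (log2 0.76 ± 0.17, adjusted p = 0.00557). The groups were apart from DMSO in both genotypes.

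For the breakdown genes the intervals with BtdCPU include 0. Prodh differed from DMSO by -0.35 in WT cells (95% interval -0.89 to 0.19, edgeR adjusted p = 0.375) and by 0.07 in PERK -/- cells (-0.51 to 0.66, adjusted p = 0.964). Aldh4a1 differed by 0.01 (-0.34 to 0.36, adjusted p = 0.982) and by 0.04 (-0.30 to 0.38, adjusted p = 0.971). By edgeR 0 of the 4 genes had a called difference between genotypes in the BtdCPU response, where 0.199% of all genes were called. Aldh18a1 was at -0.58 ± 0.15, the 1 gene under an unadjusted p of 0.05 (adjusted p = 0.111), and DESeq2 called it (adjusted p = 0.0326), as did edgeR without the filter (-0.57, adjusted p = 0.0485). With the replicate block, which raised the genes called from 32 to 587, it was -0.57 and passed (adjusted p = 0.0142), and without WT BtdCPU replicate 2 it was -0.74 (adjusted p = 0.000781).

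Halofuginone raised Aldh18a1 in both genotypes, while Pycr1 rose in PERK -/- cells and was not called in WT cells. In WT cells 3 of the 4 enzymes were called against 68.2% of all genes, and in PERK -/- cells 3 of 4 against 42.2%. Aldh18a1 reached 475, 461 and 385 CPM in WT cells (log2 1.39 ± 0.11, edgeR adjusted p = 2.17e-12). The PERK -/- libraries stood at 775, 847 and 799 CPM (log2 1.48 ± 0.11, adjusted p = 5.59e-12). Both groups lay above all of their DMSO libraries. The difference between the responses was 0.09 (95% interval -0.23 to 0.40, adjusted p = 0.704).

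Pycr1 stood at 16.5, 19.3 and 10.2 CPM in WT halofuginone libraries, a wide spread that overlapped DMSO on both sides (log2 0.03, 95% interval -0.31 to 0.38, edgeR adjusted p = 0.868). The PERK -/- libraries held 39.5, 41.1 and 40.1 CPM, 2.34-fold above DMSO without overlap (log2 1.23 ± 0.17, adjusted p = 4.81e-07). The responses differed by 1.19 ± 0.24 (adjusted p = 0.000232). Across the 4 enzymes, 2 differences between genotypes in the halofuginone response were called, against 35.0% of all genes.

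Among the breakdown genes, Prodh was at 8.92, 9.09 and 7.68 CPM in WT cells with halofuginone, above every DMSO library (log2 0.77 ± 0.26, edgeR adjusted p = 0.00934). Without WT DMSO replicate 2 this was 0.59 and not called (adjusted p = 0.0779). Prodh in PERK -/- cells was at 2.05, 2.25 and 2.80 CPM, overlapping DMSO (log2 0.46, 95% interval -0.12 to 1.04, adjusted p = 0.196). Aldh4a1 fell in PERK -/- cells from 11.2, 11.5 and 14.3 CPM to 6.28, 5.77 and 5.37 CPM without overlap (log2 -1.09 ± 0.17, adjusted p = 6.47e-06). In WT cells it was at 6.13, 4.75 and 9.68 CPM, and replicate 3 lay within the DMSO range. The log2 difference of -0.41 ± 0.17 passed (adjusted p = 0.0356), but not without WT DMSO replicate 1 (-0.41, adjusted p = 0.0684) or WT halofuginone replicate 1 (-0.40, adjusted p = 0.0742) or 2 (-0.27, adjusted p = 0.176), and without replicate 3 it was -0.81. On the compared groups only it was -0.42 and not called (adjusted p = 0.173).

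The halofuginone responses of Aldh4a1 differed between genotypes by -0.67 ± 0.24 (edgeR adjusted p = 0.0324). That value was -0.28 without WT halofuginone replicate 3 (adjusted p = 0.353). It was also not called without PERK -/- DMSO replicate 3, PERK -/- halofuginone replicate 2 or 3, or WT DMSO replicate 2 or 3 (adjusted p 0.0576 to 0.104). Nor was it called with library size alone (-0.56, adjusted p = 0.0721), without the filter (-0.60, adjusted p = 0.101) or on the compared groups only (-0.67, adjusted p = 0.1). In the RefSeq annotation the Aldh4a1 gene overlaps Mir7020, which has counts of its own, so reads of both loci may not be fully separated, and Aldh18a1 overlaps Gm15801, which has none.

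Adding BtdCPU to Tg gave a call for 3 of the 4 enzymes in PERK -/- cells, where 35.6% of all genes were called, and for 0 of 4 in WT cells, where 2.32% were. In WT cells 1 of the 4, Aldh18a1, was under an unadjusted p of 0.05 by edgeR, and DESeq2 called 0. The 372 genes called there became 2079 with the replicate block, which called none of the 4 either. Aldh18a1 in PERK -/- cells was at 669, 707 and 836 CPM, 2.07-fold above Tg alone (log2 1.05 ± 0.11, edgeR adjusted p = 8.06e-09). The WT libraries were at 564, 464 and 492 CPM, overlapping Tg alone (log2 -0.23, 95% interval -0.45 to -0.01, adjusted p = 0.28). Pycr1 rose in PERK -/- cells to 37.7, 37.8 and 43.3 CPM (log2 0.56 ± 0.16, adjusted p = 0.00762). The WT levels were 27.6, 31.3 and 21.8 CPM, under all 3 Tg libraries but not called (log2 -0.29, adjusted p = 0.369).

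Aldh4a1 fell in PERK -/- cells when BtdCPU was added, to 9.52, 9.28 and 11.6 CPM (log2 -0.56 ± 0.17, edgeR adjusted p = 0.00952). Without PERK -/- Tg replicate 3 this was -0.46 and not called (adjusted p = 0.0638). WT levels were 5.21, 4.53 and 4.56 CPM, overlapping Tg alone (log2 0.12, adjusted p = 0.783). Prodh overlapped Tg alone in both genotypes, with log2 differences of -0.24 in WT (adjusted p = 0.689) and 0.09 in PERK -/- cells (adjusted p = 0.873).

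The effect of adding BtdCPU differed between genotypes for 3 of the 4 genes, against 20.8% of all genes. The PERK -/- minus WT values were 1.28 ± 0.16 for Aldh18a1 (edgeR adjusted p = 4.53e-07), 0.86 ± 0.23 for Pycr1 (adjusted p = 0.00783) and -0.68 ± 0.25 for Aldh4a1 (adjusted p = 0.0473). The last was not called after leaving out any 1 of the WT Tg or WT BtdCPU with Tg libraries, PERK -/- Tg replicate 1 or 3, or PERK -/- BtdCPU with Tg replicate 1 or 2 (adjusted p 0.0574 to 0.132), nor without the filter (-0.63, adjusted p = 0.12). For Prodh the value was 0.33 (95% interval -0.55 to 1.22, adjusted p = 0.655).

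Adding halofuginone to Tg moved Aldh18a1 and Aldh4a1 in opposite directions in the genotypes. In WT cells 3 of the 4 were called against 45.3% of all genes, and in PERK -/- cells 3 of 4 against 52.7%. Aldh18a1 rose in PERK -/- cells to 736, 801 and 806 CPM, 2.20-fold above Tg alone (log2 1.13 ± 0.11, edgeR adjusted p = 3.79e-10). It was lower in WT cells, at 510, 499 and 461 CPM (log2 -0.28 ± 0.11, adjusted p = 0.038). This fall was not called without WT Tg replicate 1 or 3, or WT halofuginone with Tg replicate 2 or 3 (-0.29 to -0.25, adjusted p 0.0594 to 0.104), nor on the compared groups only (-0.29, adjusted p = 0.0824).

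Pycr1 fell in WT cells to 20.02, 26.8 and 16.7 CPM, under every Tg library (log2 -0.64 ± 0.17, edgeR adjusted p = 0.00203). The PERK -/- libraries were at 37.4, 35.7 and 31.9 CPM, above every Tg library but just short of a call (log2 0.38 ± 0.16, adjusted p = 0.0504). It passed without PERK -/- Tg replicate 3 (0.48, adjusted p = 0.0342) and without PERK -/- halofuginone with Tg replicate 3 (0.44, adjusted p = 0.0454). DESeq2 (0.40, adjusted p = 0.032), edgeR without the filter (0.42, adjusted p = 0.0124), edgeR on the compared groups only (0.41, adjusted p = 0.00411) and the replicate block (0.39, adjusted p = 0.00384) called it too. The difference between genotypes was called, at 1.02 ± 0.23 (adjusted p = 0.000945).

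Both breakdown genes also separated the genotypes. Prodh rose in PERK -/- cells to 1.30, 2.07 and 1.46 CPM, above every Tg library (log2 1.29 ± 0.32, edgeR adjusted p = 0.00107). In WT cells it was at 7.16, 8.66 and 4.19 CPM, overlapping Tg (log2 0.20, 95% interval -0.32 to 0.73, adjusted p = 0.546). Aldh4a1 rose in WT cells to 6.23, 6.02 and 7.68 CPM (log2 0.60 ± 0.18, adjusted p = 0.00651), which was 0.46 and not called without WT halofuginone with Tg replicate 3 (adjusted p = 0.0641). It fell in PERK -/- cells to 6.80, 6.19 and 5.59 CPM, under every Tg library (log2 -1.27 ± 0.17, adjusted p = 2.4e-07).

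All 4 differences between genotypes were called for halofuginone added to Tg, against 32.7% of all genes. For Aldh18a1 the value was 1.41 ± 0.16 (edgeR adjusted p = 3.19e-08) and for Aldh4a1 -1.87 ± 0.25 (adjusted p = 6.77e-07). For Prodh it was 1.08 ± 0.41 (adjusted p = 0.0421), and it was not called without WT Tg replicate 1 or 2, WT halofuginone with Tg replicate 3, PERK -/- Tg replicate 1 or 2, or PERK -/- halofuginone with Tg replicate 2 (0.86 to 1.07, adjusted p 0.0742 to 0.14). On the compared groups only it was 1.14 and not called (adjusted p = 0.0632). In this comparison all 6 stress response readouts also had a called positive difference between genotypes. Their list median was 1.43 against -0.04 for all genes, of which 15.9% were higher. They did not always go with Pycr1. For halofuginone against DMSO, 3 of the 6 had a called negative difference between genotypes and 0 a positive one (median -0.47), where 17.5% of all genes were lower and Pycr1 was at 1.19. In WT cells halofuginone raised all 6, where 34.7% of all genes rose, and Pycr1 was not called.

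Halofuginone and BtdCPU were also compared directly. The doses are not given, so these values do not compare the compounds at matched doses. In WT cells 3 of the 4 enzymes differed against 64.4% of all genes, and in PERK -/- cells 3 of 4 against 36.1%. Aldh18a1 was higher with halofuginone than with BtdCPU in PERK -/- cells (log2 0.56 ± 0.11, edgeR adjusted p = 0.00014). In WT cells its libraries overlapped (log2 -0.10, adjusted p = 0.42), but without WT BtdCPU replicate 2 it was lower with halofuginone (-0.31, adjusted p = 0.00705). Pycr1 was lower with halofuginone in WT cells (log2 -0.76 ± 0.17, adjusted p = 0.000223). It was higher in PERK -/- cells (log2 0.47 ± 0.16, adjusted p = 0.0235), a call lost without PERK -/- BtdCPU replicate 1 or 2 or PERK -/- halofuginone replicate 2 or 3 (0.41 to 0.47, adjusted p 0.0537 to 0.0935).

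On the breakdown side, Prodh was higher with halofuginone than with BtdCPU in WT cells (log2 1.12 ± 0.26, edgeR adjusted p = 0.000431). Its PERK -/- libraries overlapped (log2 0.39, adjusted p = 0.3). Aldh4a1 was lower with halofuginone in PERK -/- cells without overlap (log2 -1.12 ± 0.17, adjusted p = 6.25e-06). In WT cells it was lower with overlap (log2 -0.43 ± 0.17, adjusted p = 0.0327), and not called without WT BtdCPU replicate 2 or WT halofuginone replicate 1 or 2 (-0.40 to -0.27, adjusted p 0.0808 to 0.188), nor on the compared groups only (-0.42, adjusted p = 0.212).

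With Tg present, halofuginone and BtdCPU differed in 1 of the 4 enzymes in WT cells, against 33.5% of all genes, and in 2 of 4 in PERK -/- cells, against 36.6%. Neither genotype showed a called difference in Aldh18a1 (log2 -0.05, 95% interval -0.27 to 0.17, in WT, and 0.08, -0.14 to 0.30, in PERK -/- cells). Prodh was higher with halofuginone in PERK -/- cells (log2 1.19 ± 0.32, edgeR adjusted p = 0.00349), and in WT cells the difference was 0.44 (adjusted p = 0.197). Aldh4a1 was lower with halofuginone in PERK -/- cells (log2 -0.71 ± 0.17, adjusted p = 0.00155). It was higher in WT cells (log2 0.48 ± 0.18, adjusted p = 0.0356), and not called without WT BtdCPU with Tg replicate 2 or 3 or WT halofuginone with Tg replicate 1 or 3 (0.35 to 0.51, adjusted p 0.0502 to 0.207). It was not called with library size alone (0.40, adjusted p = 0.0776), without the filter (0.45, adjusted p = 0.0862) or on the compared groups only (0.46, adjusted p = 0.0966).

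Pycr1 under Tg did not differ by the test between the compounds, at -0.34 in WT (edgeR adjusted p = 0.111) and -0.18 in PERK -/- cells (adjusted p = 0.42). In WT cells the replicate block gave -0.35 and a call (adjusted p = 0.0138). So did edgeR without the filter (-0.37, adjusted p = 0.0477) and leaving out WT BtdCPU with Tg replicate 3 (-0.48, adjusted p = 0.0376) or WT halofuginone with Tg replicate 2 (-0.55, adjusted p = 0.0161).

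Groups were put in order of their mean level, and steps are described between neighbours in that order. For Aldh18a1 the lowest groups were WT DMSO, PERK -/- DMSO and PERK -/- Tg, each without overlap with the next, and the 3 highest were PERK -/- with BtdCPU and Tg, halofuginone and Tg, and halofuginone, apart from all below them in the order but overlapping each other. The 6 groups between, from WT halofuginone at 440 CPM to WT Tg at 594 CPM, overlapped from each to the next. Among them, WT BtdCPU replicate 2, at 358 CPM, also lay under the highest PERK -/- Tg library, at 360 CPM. For Pycr1 10 of the 11 neighbouring pairs overlapped, and the step from PERK -/- halofuginone with Tg (35.0 CPM) to PERK -/- BtdCPU with Tg (39.6 CPM) did not. For Prodh 2 steps were free of overlap: from PERK -/- BtdCPU with Tg (0.701 CPM) to PERK -/- halofuginone with Tg (1.61 CPM), and from PERK -/- halofuginone (2.37 CPM) to WT BtdCPU (3.93 CPM). For Aldh4a1 the single step between neighbours was from WT BtdCPU with Tg (4.77 CPM) to PERK -/- halofuginone (5.81 CPM). It is no gap over all groups: WT halofuginone, higher in the order, went down to 4.75 CPM, within the WT BtdCPU with Tg range of 4.53 to 5.21 CPM.

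The balance of Aldh18a1 to Prodh transcripts was taken as the ratio of RPKM within a library. It was 23.4 ± 4.95 in WT DMSO libraries (SD, n = 3) and 117 ± 17.8 in PERK -/- DMSO libraries. With Tg it was 74.9 ± 30.3 in WT and 383 ± 90.6 in PERK -/- libraries, and with BtdCPU and Tg it reached 743 ± 220.3 in PERK -/- libraries. With halofuginone it was 34.8 ± 1.11 in WT, where both genes rose, and 235 ± 35.8 in PERK -/- libraries. The highest WT library, at 112, stayed under all PERK -/- libraries except 1 of DMSO, at 98.9. Few Prodh counts lie behind the highest ratios: 33, 23 and 22 in PERK -/- libraries with BtdCPU and Tg, and 22, 19 and 32 with Tg. No test was run on the ratio.

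**Figure D3:**
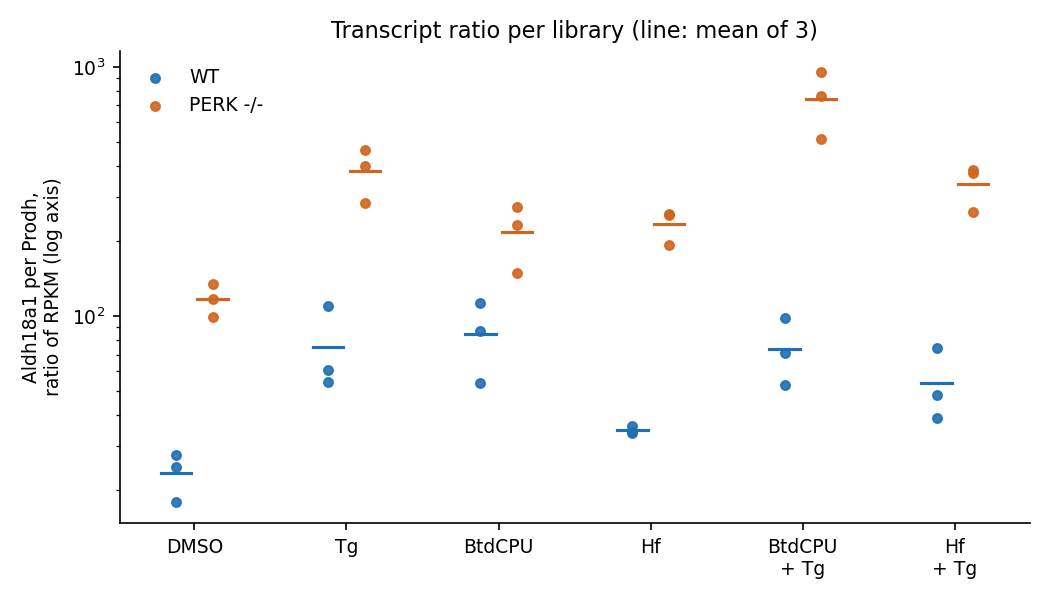
Ratio of Aldh18a1 to Prodh in RPKM (log axis) in each library by treatment (Hf is halofuginone), for WT (blue) and PERK -/- (orange) cells. Points are libraries and lines are means of 3; the means run from 23.4 to 84.5 in WT and from 117 to 743 in PERK -/- groups.

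Among the 10228 genes whose average log2 CPM was 2 or higher, the 3 with the most similar group means over the 12 groups were found for each enzyme, as Pearson's r of log2 CPM. The groups share genotypes and treatments and are not independent points. For Aldh18a1 they were Asns, which makes asparagine (r = 0.985), Sars, a seryl-tRNA synthetase (0.981), and Angptl6 (0.981). For Pycr1 they were Aldh3a2 (0.949), Them4 (0.942) and Klhdc10 (0.933). For Prodh they were Utp3 (0.985), Gypc (0.977) and Chordc1 (0.970), and for Aldh4a1 Ndst2 (0.961), Tmem2 (0.951) and Inppl1 (0.951). Between the enzymes, r was 0.83 for Aldh18a1 and Pycr1, -0.20 for Aldh18a1 and Prodh and -0.65 for Prodh and Aldh4a1.

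The other genes of the pathway listed here, 19 in number, of which 16 were tested, moved in both directions. Tg raised 5 of them and lowered 2 in WT cells, with a median of -0.04 on the log2 scale against 0.02 for all genes, of which 24.9% rose and 22.7% fell. In PERK -/- cells it raised 5 and lowered 2 (median 0.12 against 0.05), where 15.2% of all genes rose and 12.7% fell. BtdCPU raised 2 and lowered 3 in WT cells (median 0.01 against -0.01), where 12.9% of all genes rose and 9.31% fell. Of all genes called there, 58.1% were higher, or 45.1% with library size alone. The 3 lowered were Arg1, Hoga1 and Pycrl. On the compared groups only, edgeR did not call Hoga1 (-1.55, adjusted p = 0.126) or Pycrl (-0.55, adjusted p = 0.0853). Leaving out some single libraries also ended both calls (adjusted p 0.0508 to 0.147), and the limits of Arg1 are given below. BtdCPU raised 1 and lowered none in PERK -/- cells, where 2.55% rose and 1.04% fell. Halofuginone raised 5 and lowered 7 in WT cells (median -0.25 against 0.00), where 34.7% of all genes rose and 33.4% fell. It raised 1 and lowered 4 in PERK -/- cells (median -0.10 against 0.00), where 21.2% rose and 21.0% fell. Added to Tg, halofuginone raised 2 in WT cells (Glul and Prodh2) and lowered 5, where 22.8% of all genes rose and 22.5% fell. In PERK -/- cells the addition raised 2 others (Eprs and Glud1) and lowered 5, where 25.2% rose and 27.5% fell. Added to Tg, BtdCPU raised 1 and lowered 3 in PERK -/- cells, where 17.3% of all genes rose and 18.3% fell. In WT cells, where 2.32% of all genes were called, edgeR called 0 of the 16 for that addition, with 3 under an unadjusted p of 0.05, and DESeq2 called 1, Oat.

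Pycrl, a cytosolic pyrroline-5-carboxylate reductase, fell with halofuginone in WT cells, where Pycr1 was not called. Its level went from 96.2, 104 and 89.7 CPM in WT DMSO to 48.8, 46.1 and 36.6 CPM with halofuginone, without overlap (log2 -1.14 ± 0.16, edgeR adjusted p = 1.31e-07). In PERK -/- cells Pycrl was at 94.8, 114 and 93.4 CPM in DMSO and 84.3, 98.7 and 67.9 CPM with halofuginone, and these overlapped and gave no call (log2 -0.27, adjusted p = 0.164), although the replicate block gave one (-0.28, adjusted p = 0.012). The difference between genotypes was called, at 0.87 ± 0.22 (adjusted p = 0.00221). Pycrl was also lower with BtdCPU in WT cells (log2 -0.53 ± 0.15, edgeR adjusted p = 0.0114), a call lost in the settings given above.

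With Tg, Pycrl fell in PERK -/- cells to 63.3, 75.3 and 60.2 CPM, under every DMSO library (log2 -0.60 ± 0.15, edgeR adjusted p = 0.0031), the largest fall among the called genes of the list there. WT libraries with Tg, at 84.2, 75.1 and 73.2 CPM, were also under every DMSO library but not called (log2 -0.32, adjusted p = 0.0866). No difference between the Tg responses of Pycrl was called (-0.28, adjusted p = 0.318). Pycr1 had risen under the same treatment.

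Oat, which makes pyrroline-5-carboxylate from ornithine, moved in the same direction in both genotypes. With Tg it rose by 0.49 ± 0.09 in WT (edgeR adjusted p = 4.1e-05) and by 0.57 ± 0.09 in PERK -/- cells (adjusted p = 1.06e-05). With halofuginone it fell from 226, 238 and 204 CPM to 123, 116 and 126 CPM in WT cells (log2 -0.88 ± 0.09, adjusted p = 6.32e-10). It fell by 0.86 in PERK -/- cells (adjusted p = 4.99e-09), the largest fall among the called genes of the list there. Aldh18a1 and Oat, which feed the same intermediate, were on opposite sides with halofuginone.

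**Figure D4:**
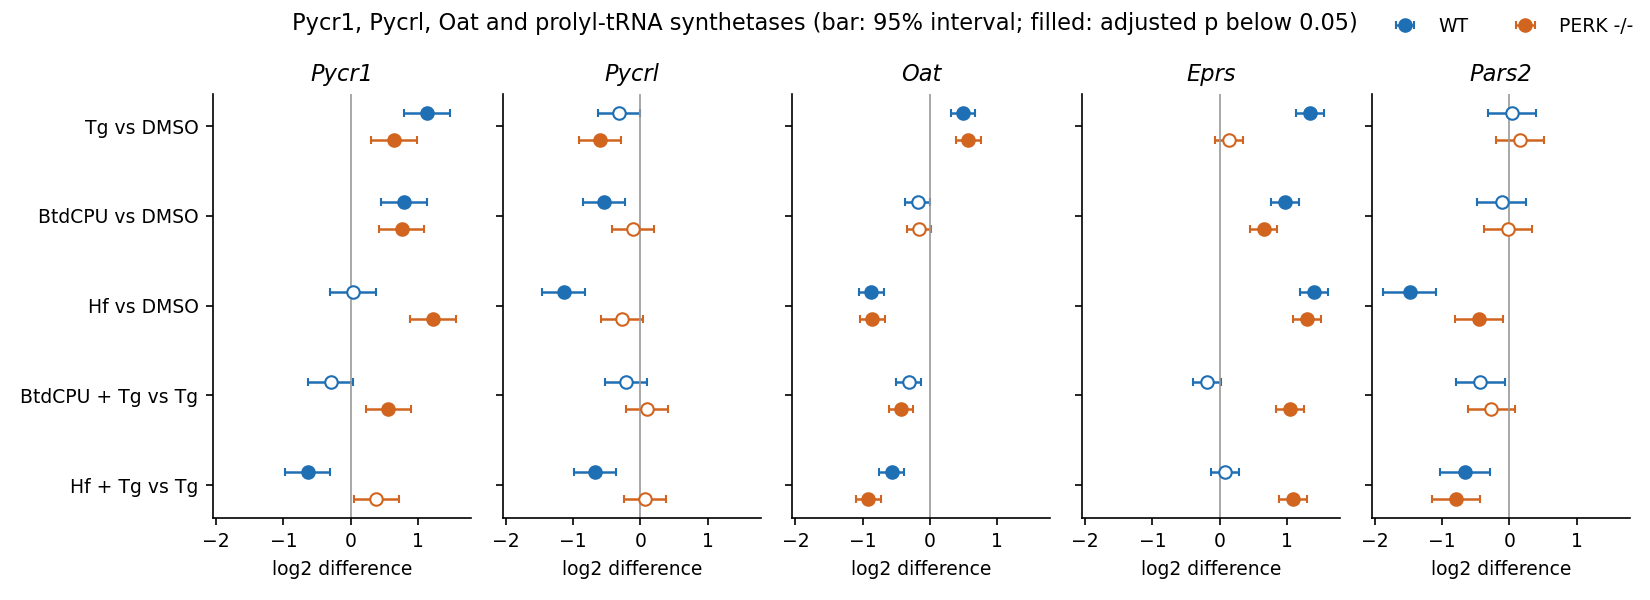
Log2 difference (x axis) of Pycr1, Pycrl, Oat and both prolyl-tRNA synthetase genes for 5 comparisons, in WT (blue) and PERK -/- (orange) cells. Points are edgeR estimates with 95% intervals and filled points passed an adjusted p of 0.05; with halofuginone Eprs rose by 1.41 and 1.30 while Pars2 was at -1.48 and -0.45.

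Eprs, the cytosolic glutamyl-prolyl-tRNA synthetase that halofuginone inhibits, rose with halofuginone in both genotypes. It went from 509, 483 and 528 CPM to 1448, 1371 and 1214 CPM in WT cells (log2 1.41 ± 0.10, edgeR adjusted p = 2.39e-13). The PERK -/- libraries went from 453, 427 and 426 CPM to 1038, 999 and 1169 CPM (log2 1.30 ± 0.10, adjusted p = 1.4e-11). Eprs also rose with BtdCPU (0.97 in WT, 0.65 in PERK -/- cells, the largest rise among the called genes of the list in each), and with Tg in WT cells (1.35 ± 0.10, adjusted p = 2.71e-12). With Tg, PERK -/- cells gave 0.14 (adjusted p = 0.33), and the Tg responses differed by -1.21 ± 0.14 (adjusted p = 5.28e-08).

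Pars2, the mitochondrial prolyl-tRNA synthetase, was lower with halofuginone, at 2.04, 2.61 and 1.39 CPM against 6.43, 5.54 and 4.92 CPM in WT DMSO libraries (log2 -1.48 ± 0.19, edgeR adjusted p = 4.71e-08). In PERK -/- cells it was lower by the test (-0.45 ± 0.18, adjusted p = 0.0402), a call lost without DMSO replicate 2 or 3 or any 1 halofuginone library (adjusted p 0.0535 to 0.191). The responses of Pars2 differed between genotypes by 1.03 ± 0.26 (adjusted p = 0.00238).

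Prodh2, a dehydrogenase related to Prodh, had 0 counts in every PERK -/- library and in the WT DMSO libraries. It had 12, 23 and 9 counts in WT halofuginone libraries, at least 5.03-fold higher than a floor of 3 counts per DMSO library. With Tg it had 4, 11 and 3 counts in WT cells, by group mean at least 1.92-fold higher than that floor. The Tg library with 3 counts was itself no higher than the floor, so the value does not hold for each library. Slc36a1, a proline transporter, had the largest fall among the called genes of the list with Tg in WT cells (log2 -0.71 ± 0.14, edgeR adjusted p = 0.000112), and Hoga1 the largest called rise with Tg in PERK -/- cells (0.91 ± 0.31, adjusted p = 0.0274). Hoga1 was not called there without DMSO replicate 3 or Tg replicate 1 or 3 (adjusted p 0.0544 to 0.154), and its gene overlaps another gene with counts. Arg1 had 11, 2 and 7 counts in WT DMSO and 0 in the WT BtdCPU and WT halofuginone libraries. By group mean it was at least 2.13-fold and 2.15-fold lower against a floor of 3 counts per library. The DMSO library with 2 counts was itself under that floor, and DESeq2 did not call Arg1 for BtdCPU.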

How the data were processed

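Per gene, the authors deposited estimated counts for 36930 entries, unscaled, where a value of 0.025 stands in place of 0 (50.6% of values). The submitters' processing notes name GRCm39 and DESeq. The aligner, counter and annotation are not given in the sources used here. Whether counting used strand is likewise not given. Entries named by a date number were left out (27 entries, 0.206% to 0.278% of counts), 39 symbols found on 86 entries were summed, and values were rounded. No 2 libraries of a group agreed within sampling noise (chi-square per degree of freedom at least 9.66).

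The tests used edgeR 4.0.16 (R 4.3.3): filterByExpr by group (16065 genes), TMM scaling, and a robust quasi-likelihood fit of 12 group means over 36 libraries. Of 20 comparisons, 15 were of 2 groups and 5 were differences between genotypes in a response. The Benjamini-Hochberg adjustment ran over all genes tested, with calls below 0.05. The fit was checked on simulated counts with independent libraries, in which a small set of genes differed in WT Tg alone. These data have many more changed genes and same-numbered libraries that deviate together, which that check does not cover. CPM used TMM-scaled library sizes, and RPKM used the longest principal protein-coding transcript in GENCODE M21. Intervals are at 95%, and those and the floor of 3 counts cover counting error or library spread only.

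Alternatives were library size alone, no filter, only the compared groups, DESeq2 1.42.0, the replicate number as a block, and leaving out each replicate. Same-numbered libraries of a genotype deviated together: every pair's correlation was over 0.1 in 10 of 14 comparisons (lowest 0.10 there, 0.06 over all). The pairing comes from the replicate numbers of the labels.

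The 4 enzymes and the lists (19 pathway genes, 6 stress response readouts, 10 p53 targets and the cell type markers) were chosen with earlier results of these data known. Named are the enzymes, the pathway genes Pycrl, Oat, Prodh2, Eprs and Pars2, the largest rise or fall of the pathway list in some of the comparisons described, and the 3 genes most like each enzyme. Glul and Glud1 were named after their values were seen. Of the planned pathway list, 1 gene is not reported here.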

Additional observations from a re-analysis of the deposited data

Results flagged for a closer look

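Each of these results is a response that differed between PERK -/- and WT cells by a direct test (PERK -/- minus WT, log2, edgeR adjusted p below 0.05). For Tg against DMSO the differences were -1.53 for Aldh18a1, -1.59 for Prodh and 1.34 for Aldh4a1. For halofuginone against DMSO they were 1.19 for Pycr1 and -0.67 for Aldh4a1. For BtdCPU added to Tg they were 1.28 for Aldh18a1, 0.86 for Pycr1 and -0.68 for Aldh4a1. For halofuginone added to Tg they were 1.41 for Aldh18a1, 1.02 for Pycr1, 1.08 for Prodh and -1.87 for Aldh4a1. Not all were equally firm. The calls of Aldh4a1 for halofuginone against DMSO and for BtdCPU added to Tg, and of Prodh for halofuginone added to Tg, were lost in several of the alternatives, as given above.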

How the results depend on the processing

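Of 80 results for the 4 enzymes, 49 were called. Among all genes, the called share per comparison ran from 0.199% (BtdCPU response between genotypes) to 68.2% (halofuginone against DMSO in WT cells). The 80 results share libraries and are not independent of each other, and whether 49 exceeds the share of all genes was not tested. With DESeq2, 77 of the 80 kept their direction and their side of the threshold. The same held for 76 with the replicate block, 75 with library size alone, 71 without the filter and 71 with only the compared groups. The replicate block ended no call of an enzyme and added 4, each given above. Among them was Pycr1 for halofuginone with Tg against Tg in PERK -/- cells (0.39, adjusted p = 0.00384). Correlations of the same-numbered libraries there were 0.058, 0.20 and 0.42, so not every pair was over 0.1. With library size alone, the sign turned for Aldh4a1 with BtdCPU in WT cells (-0.063), the Pycr1 BtdCPU response between genotypes (0.042) and Pycr1 with halofuginone in WT cells (-0.092). It also turned for Pycr1 with halofuginone without the filter (-0.032) and for Aldh4a1 with BtdCPU in WT cells with only the compared groups (-0.00033). None of these was called. Scaling by library size shifted all genes by -0.13 for halofuginone against DMSO in WT cells and by 0.10 for that response between genotypes, and by less than 0.1 in the other comparisons. Leaving out 1 library at a time kept direction and call in 515 values, ended 51 calls, added 7 and turned 27 signs, none of a called value. It gave ranges across 0 for -0.11 to 0.035 (Aldh18a1, halofuginone against BtdCPU under Tg, WT), -0.067 to 0.14 (Aldh4a1, BtdCPU response between genotypes), -0.034 to 0.16 and -0.084 to 0.095 (Aldh4a1, BtdCPU, PERK -/- and WT), -0.22 to 0.25 (Prodh, BtdCPU, PERK -/-), -0.11 to 0.33 (Prodh, BtdCPU added to Tg, PERK -/-), -0.034 to 0.43 (Prodh, halofuginone added to Tg, WT), -0.18 to 0.044 (Pycr1, BtdCPU response between genotypes) and -0.23 to 0.20 (Pycr1, halofuginone, WT). The count of all genes called moved for 4 comparisons, and the cause was not tested. For BtdCPU in WT cells it was 3571, against 5534 with the replicate block, 829 with only the compared groups and 1756 to 5087 after leaving out 1 library. For BtdCPU in PERK -/- cells it was 577, against 1577, 1253, 337 to 422 and, with DESeq2, 877. For BtdCPU added to Tg in WT cells it was 372, against 2079, 34, 41 to 345, 809 with DESeq2 and 813 without the filter. For the BtdCPU response between genotypes it was 32, against 587, 2, 14 to 864, 156 with DESeq2 and 314 without the filter. With library size alone, Aldh18a1 stood at 368 CPM with Tg and 568 CPM with BtdCPU in PERK -/- cells. Depth limits Prodh most, at 19 to 315 counts.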
